A study of Mus musculus with 2 samples.

Results

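RNA for glucose uptake, glycolysis, lactate and pyruvate metabolism, the tricarboxylic acid (TCA) cycle and the pentose phosphate pathway was measured in mouse embryonic stem (ES) cells. The set was a list of 44 genes given by symbol; 37 had a probe whose RefSeq accession led to that symbol, among 10137 genes named and tested. The other 7, Aldoc, Pgam1, Idh1, Dlst, Suclg2, Sucla2 and Pgd, had no matched probe and were not analysed here. The RNA came from EB5 ES cells grown feeder-free on gelatin, which received Klf4 siRNA with the plasmid pCAGEGFP-IP and spent 24 h before and 24 h in puromycin, a drug that enriches transfected cells. It was labelled with Cy3 on each of 2 arrays (siKlf4 ES cells, n = 2). The Cy5 channel held a common reference in both cases, a pool of 11 mouse cell lines whose sources range from embryo, fibroblast and liver to lymphocytes, macrophages, myoblasts and testis. No ES cells without Klf4 siRNA and no dye swap were analysed here, so each value is a difference between siKlf4 ES cells and that pool, dye included, and none measures an effect of the siRNA. The labels do not say whether the arrays stand for separate cultures, so the p-values measure only the spread between these arrays, which may be technical.

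Cells take up glucose through facilitative transporters and trap it by phosphorylation. Glycolysis then splits it to pyruvate, which lactate dehydrogenase reduces to lactate or the pyruvate dehydrogenase complex passes to the TCA cycle in mitochondria. Most steps are served by several isoforms that tissues use to different extents. Pluripotent cells are known for a high glycolytic rate, and the pentose phosphate branch supplies them with NADPH and with ribose for nucleotides.

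Klf4, the siRNA target, had log2 ratios of 0.43 and 0.59 in siKlf4 ES cells over the reference, a mean of 0.51 ± 0.11 (SD, n = 2). With no ES cells lacking the siRNA to set it against, this does not measure the knockdown. The ES cell markers Pou5f1 (2.86 ± 0.053, SD, n = 2) and Sox2 (5.69 ± 0.14) stood far above the pool, and 7 of 7 measured ES cell markers were higher, although Esrrb stayed at the level of the negative controls in both channels. The 5 measured fibroblast markers were all lower, at summed signals of 4644 and 5662 units in the ES channel, against 66578 and 64147 units in the reference. The median gene probe lay 308 and 355 intensity units above local background in the ES channel, against 246 and 264 units in the reference. All 37 glucose metabolism genes exceeded the limit set by 95% of negative control spots, in each channel of each array, and 0 were saturated. That limit was 155 and 178 units in the ES channel, against 41 and 58 units in the reference. Units of dim genes therefore cannot be compared directly between the channels.

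The genes did not move as a block. Uptake, hexokinase 2, the B chain of lactate dehydrogenase, 3 pyruvate dehydrogenase subunits and the transaldolase and transketolase of the pentose branch stood higher in siKlf4 ES cells than in the pool. Most enzymes between glucose 6-phosphate and pyruvate stood lower. In limma's test of the mean log2 ratio against 0 (p adjusted by Benjamini-Hochberg over 21028 probes and under 0.05, with the same sign on both arrays), 15 of 37 genes were higher, 17 lower and 5 did not pass. Over all 10137 named genes the shares were 34.8% higher and 34.2% lower, so 40.5% and 45.9% of this set were not far from the background. The median log2 ratio of the set was 0.04, against -0.01 over all named genes.

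Small ratios need care here, because 115 of 161 negative control spots, which match no mouse gene, passed the same test, with log2 ratios between -0.25 and 0.52. Beyond 0.52 in size, 9 of the 37 genes were higher and 10 lower, where the background was 15.9% and 14.2%. At 2-fold, 4 were higher (Slc2a3, Ldhb, Hk2 and Pdhb; background 6.73%) and 5 lower (Eno2, Tpi1, Pfkm, Idh2 and Eno3; background 7.47%). The other 13 passing genes lay within the size range of the negative control spots, that is, within 0.52 on either side of 0. Of these, Gapdh (-0.49), Pfkl (-0.42), G6pdx (-0.29) and Idh3b (-0.27) were lower than the lowest control spot. The arrays differed by at most 0.27 in log2 ratio for any of the 37 genes (Pdhb), and 35 had the same sign on both.

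**Figure D1:**
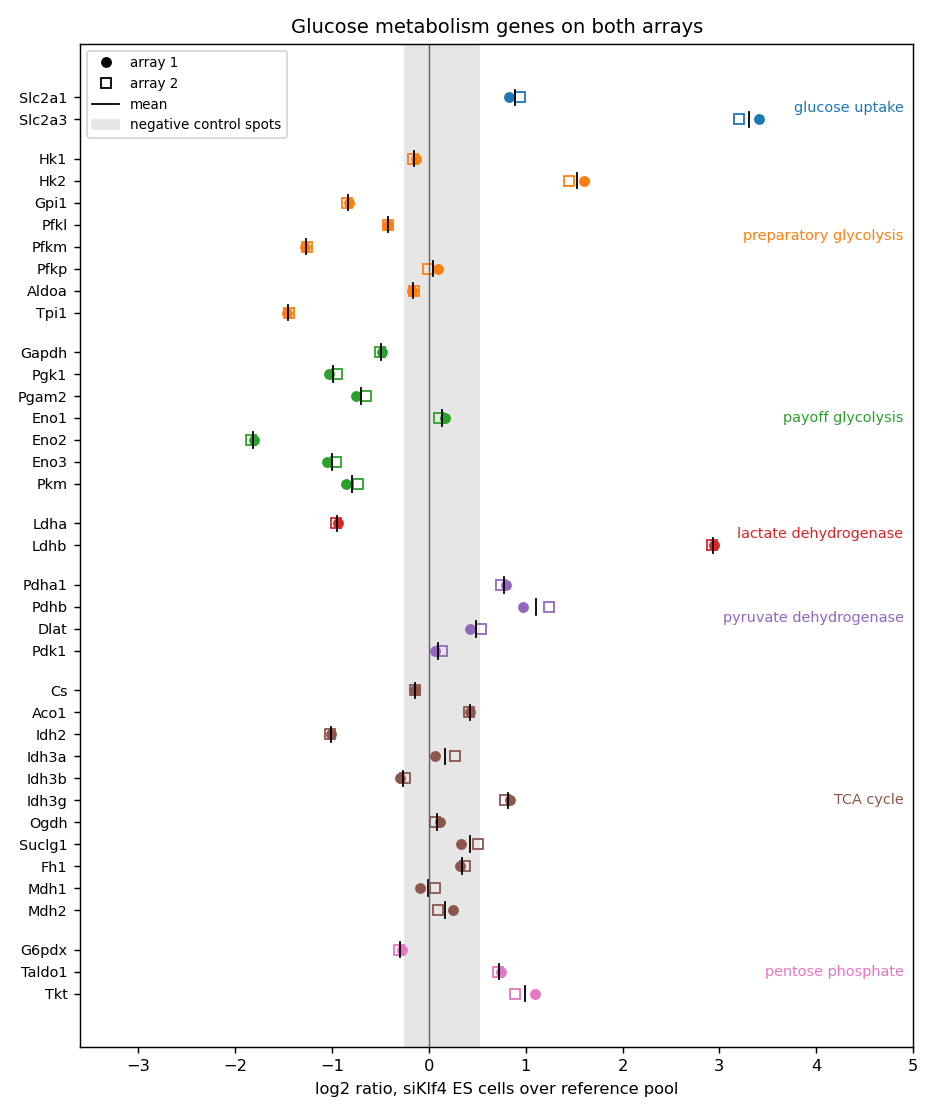
Log2 ratio of siKlf4 ES cells over the reference pool (x axis) for each of the 37 genes, grouped by pathway step; filled circles are array 1, open squares array 2, the black line their mean, and the grey band the range of the negative control spots, -0.25 to 0.52. Slc2a3 and Ldhb lie farthest to the right, and most glycolytic enzymes from Gpi1 to Pkm lie left of 0.

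RNA of Slc2a3 and Slc2a1, the glucose transporters of the set, was higher. Other glucose transporters, named after their values were seen, did not pass: Slc2a2 stood at 0.03, Slc2a4 at 0.08, Slc2a8 at -0.01 and Slc5a1 at 0.09. Signals are given above local background and before dye normalisation, so a log2 ratio, which is normalised, can differ from the quotient of the signals and, near equality, even in sign. Slc2a3, encoding the high-affinity transporter GLUT3, read 4565 and 5020 units above background in siKlf4 ES cells, against 464 and 505 units in the reference. The channels did not overlap, and the log2 ratios of 3.40 and 3.20 gave a mean of 3.30 ± 0.14 (SD, n = 2), 9.88-fold (limma, adjusted p = 1.17e-06). Without background correction the value was 2.65. Slc2a1, encoding the widely expressed GLUT1, read 12258 and 16014 units in siKlf4 ES cells, against 7274 and 7413 in the reference. Its mean log2 ratio was 0.89 ± 0.080, 1.85-fold (adjusted p = 2.82e-05). Slc2a3 thus exceeded Slc2a1 by 2.57 and 2.26 in log2 ratio on arrays 1 and 2, a difference of 2.42 ± 0.22, several times the spread between arrays. This and the isoform differences that follow are descriptions with their SD, and no test of them was run.

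The values rest on 60-base probes, and those of isoforms are separate sequences. Among the 11 isoform or subunit pairs with both genes measured, the longest exact run shared by their probes was 8 bases (Pfkm and Pfkl). The first 30 bases of the probes for the transporter and hexokinase pairs, in the orientation the files give, are shown to let the targets be compared; the numbers are the probe positions in the transcript.
Slc2a3, position 3220: tgaagacccagttgtgggccaagggtggct
Slc2a1, position 2444: tacagacactaagttatagtatatctggac
Hk2, position 5115: gggtagccacggagtacaaatggattctga
Hk1, position 2888: atcatgcaccaaacagtgaaggaactgtca

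Hexokinase, which commits glucose to the cell, was split by isoform. Hk2, the inducible isoform bound to mitochondria in many proliferating cells, read 3264 and 3282 units in siKlf4 ES cells, against 1193 and 1139 units in the reference. Its log2 ratio of 1.53 ± 0.11 equals 2.88-fold (limma, adjusted p = 6.65e-06), and both arrays were well apart from 0. Hk1, the constitutive isoform, read 387 and 528 units in siKlf4 ES cells, against 377 and 502 in the reference, and its log2 ratio of -0.15 ± 0.015 lay inside the range of the negative control spots. The ratio of Hk2 exceeded that of Hk1 by 1.74 and 1.61 on arrays 1 and 2.

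From glucose 6-phosphate to pyruvate the direction turned. Over the 15 measured enzymes from hexokinase to pyruvate kinase, 12 were lower (80%, against 34.2% of all named genes). There were 2 higher (Hk2 and Eno1) and 1 did not pass (Pfkp). Beyond the size range of the negative control spots 8 were lower, where the share over all named genes was 14.2%. The median of the 15 was -0.70. In each of the 7 other processing settings run, 12 were lower too, and the median ranged from -0.79 to -0.43, the last without background correction. The settings with only probes above the negative controls, and with outlier spots kept, left these ratios unchanged and altered only the test. Gpi1, which converts glucose 6-phosphate to fructose 6-phosphate, stood at -0.83 ± 0.015 (adjusted p = 1.84e-05). Its signals were 9959 and 12065 units in siKlf4 ES cells, against 18415 and 19284 units in the reference, with no overlap.

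Phosphofructokinase, the main control point of glycolysis, differed among its subunits. The muscle-type Pfkm was lowest, at 536 and 642 units in siKlf4 ES cells, against 1389 and 1434 units in the reference, a log2 ratio of -1.27 ± 0.017 or 2.41-fold lower. The liver-type Pfkl stood at -0.42 ± 0.0019, inside the size range of the negative control spots and near their limit in signal, at 214 and 229 units in siKlf4 ES cells, against 187 and 182 units in the reference. The platelet-type Pfkp did not pass, with log2 ratios of 0.10 and -0.01 (adjusted p = 0.404). The order Pfkp, Pfkl, Pfkm was the same on both arrays: Pfkp exceeded Pfkl by 0.46 ± 0.079, and the difference of Pfkm minus Pfkl was -0.85 ± 0.015. Without background correction Pfkm stood at -0.85 and Pfkl at -0.15.

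Of the enzymes that cleave and interconvert the triose phosphates, Aldoa (aldolase A) was near the pool at -0.16 ± 0.011, with 17656 and 21296 units in siKlf4 ES cells, against 20576 and 21069 units in the reference. Tpi1, triose phosphate isomerase, was the lowest glycolytic enzyme apart from the neuronal enolase described next. Tpi1 read 4488 and 5426 units in siKlf4 ES cells, against 13067 and 13067 units in the reference. Its log2 ratio of -1.45 ± 0.013 equals 2.73-fold lower (adjusted p = 2.91e-06) and was the only 2-fold lower call of the set that held without background correction (-1.33).

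The ATP-yielding stage of glycolysis followed the same direction in 6 of 7 measured genes (85.7% lower, against 34.2% of all named genes). Gapdh, glyceraldehyde 3-phosphate dehydrogenase, stood at -0.49 ± 0.014, and its other probes, nearer the 5′ end, gave -0.55 and -0.34. These 3 probes pointed the same way. Pgk1, phosphoglycerate kinase, read 26240 and 30463 units in siKlf4 ES cells, against 54256 and 51795 units in the reference, which is -0.99 ± 0.058 or 1.99-fold lower (adjusted p = 1.41e-05). Pkm, pyruvate kinase, read 34898 and 44473 units in siKlf4 ES cells, against 63236 and 64483 units in the reference, at -0.79 ± 0.090 (adjusted p = 5.14e-05). The Pkm reference signals were not marked as saturated. They lay near 65110 and 65116 units, where an ES cell marker was marked as saturated in the ES channel. Whether this limited the Pkm ratio was not tested. Whether the Pkm probe separates the M1 and M2 splice forms was not checked, so the value is given for the gene. Both genes were without overlap between the channels.

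Enolase showed the isoform split again, while only the muscle isoform of phosphoglycerate mutase was measured. Eno1, the ubiquitous enolase, stood at 0.13 ± 0.043 (second probe 0.35), a size that negative control spots also reach, and at -0.08 with median centring in place of loess. Eno2, the neuronal enolase, read 278 and 298 units in siKlf4 ES cells, against 896 and 869 units in the reference. At -1.82 ± 0.023, 3.53-fold lower (adjusted p = 1.70e-06), it was the lowest gene of the set, and at -0.97 without background correction. The muscle enolase Eno3 stood at -1.05 and -0.96 on arrays 1 and 2, and at -0.60 without background correction. The muscle mutase Pgam2 stood at -0.70 ± 0.074, and at -0.30 without background correction. The 4 isoforms described above as muscle or neuronal types (Pfkm, Pgam2, Eno2 and Eno3) were thus all lower, at a median of -1.13. All 4 lay beyond the size range of the negative control spots, where 14.2% of all named genes were lower. This group was picked from the set by hand and does not hold every isoform that tissues use to different extents. The isoforms Slc2a3 (3.30) and Hk2 (1.53) were left out of it and were higher, so the group does not stand for all such isoforms. Minus Eno1 the log2 ratios of Eno2 and Eno3 were -1.95 ± 0.019 and -1.14 ± 0.11.

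The reference pool contains a myoblast line. Of 6 skeletal muscle markers, 4 were lower in siKlf4 ES cells (Acta1 the farthest, at -1.38), 1 was higher and 1 did not pass. Their summed signals were 1536 and 2063 units in siKlf4 ES cells, against 1487 and 1947 units in the reference, and Des and Tnnt3 did not exceed the negative controls in the ES channel. Myod1, which did not pass, gave 673 and 1131 units of the ES sums. Since the negative control limit is higher in the ES channel, sums of dim markers, muscle or neural, do not compare the channels. Of 4 neural markers, 2 were higher, 1 lower and 1 not passed, with sums of 2486 and 2956 units in siKlf4 ES cells, against 914 and 1101 units in the reference. The part of such cells in the ratios of the muscle and neuronal isoforms was not tested, and in pooled RNA fewer cells of a type and less RNA per cell cannot be told apart.

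**Figure D2:**
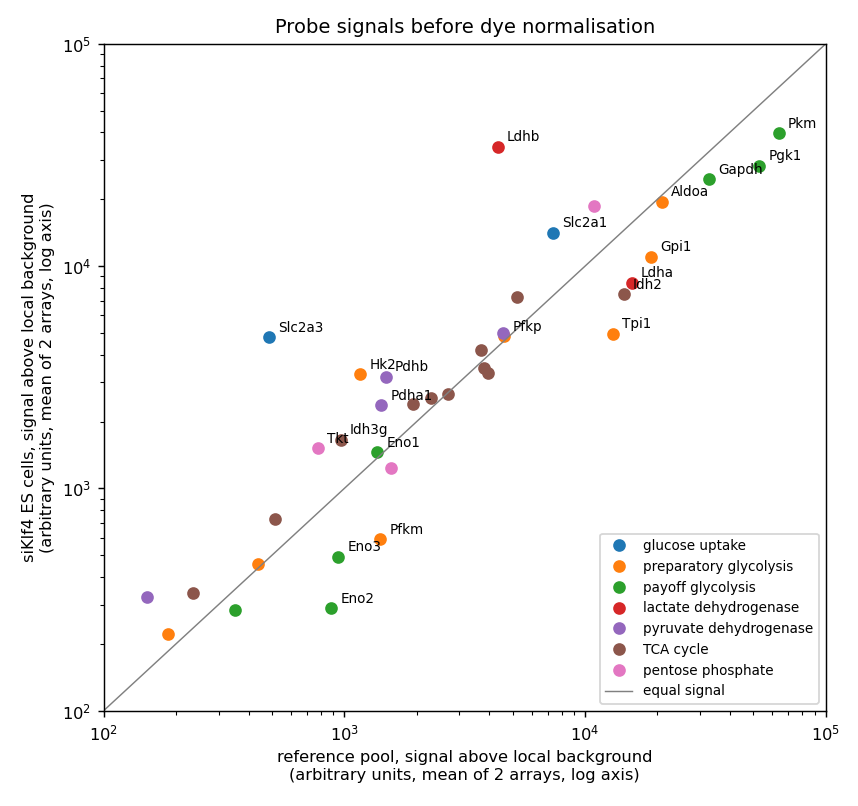
Signal above local background in siKlf4 ES cells (y axis) against the reference pool (x axis), both in arbitrary units on log axes and averaged over 2 arrays, for the 37 genes coloured by step; the line marks equal signal. Ldhb and Slc2a3 lie far above the line, and Eno2, Tpi1 and Pfkm farthest below it.

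Lactate dehydrogenase held the widest gap between isoforms. The enzyme is a tetramer of A and B chains; chain A is favoured in glycolytic muscle and chain B in heart. Ldhb read 31971 and 36942 units in siKlf4 ES cells, against 4363 and 4341 units in the reference, with no overlap. Its log2 ratio was 2.93 ± 0.015, 7.61-fold (limma, adjusted p = 5.53e-07), and stayed between 2.87 and 2.94 under every setting run. The brighter Ldha probe pointed the other way, at 7846 and 8991 units in siKlf4 ES cells, against 15773 and 15536 units in the reference, or -0.95 ± 0.015 (adjusted p = 1.18e-05). The ratio of Ldhb exceeded that of Ldha by 3.87 on each array.

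The size of the Ldha difference depended on the probe. The second probe, closer to the 5′ end, gave -0.16 ± 0.074, inside the range of the negative control spots, with 1077 and 1584 units in siKlf4 ES cells, against 1390 and 1635 units in the reference. The mean of both probes was -0.55. The probes differed by 0.78 in log2 ratio, whereas over the 241 genes with several probes the median spread was 0.27, and 25.7% spread by more than 0.5. Both Ldha probes are given whole, since their targets differ, beside the first 30 bases of the Ldhb probe.
Ldha, position 272: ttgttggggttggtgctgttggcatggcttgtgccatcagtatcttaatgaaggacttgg
Ldha, position 1025: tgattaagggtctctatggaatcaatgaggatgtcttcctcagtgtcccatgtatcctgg
Ldhb, position 1112: tctaggctgtagaacacaaacctccaatgt

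**Figure D3:**
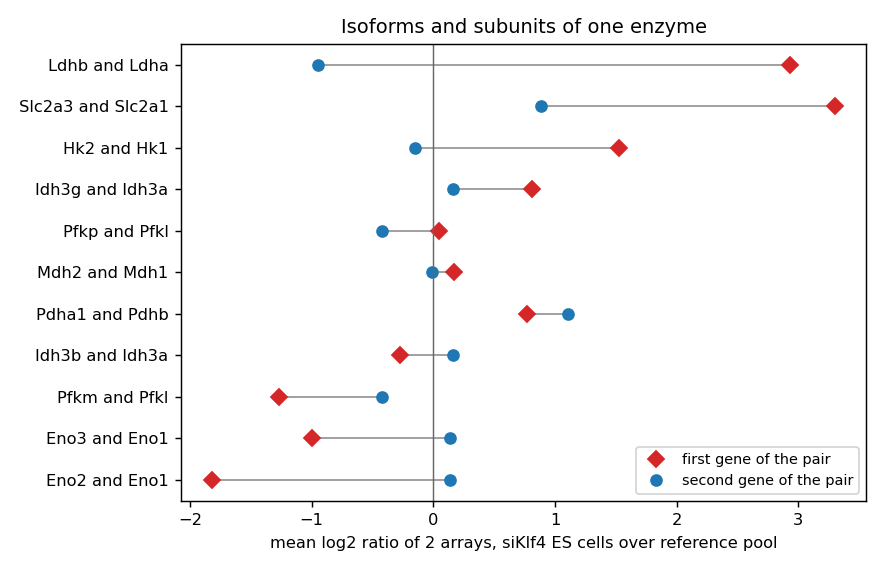
Mean log2 ratio over 2 arrays (x axis) of both genes in each of the 11 isoform or subunit pairs measured; red diamonds are the first gene named, blue circles the second. Ldhb and Ldha lie 3.87 apart, and Slc2a3 and Slc2a1 2.42 apart.

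The pyruvate dehydrogenase complex, which turns pyruvate into acetyl-CoA, was higher in Pdha1, Pdhb and Dlat, but not in its lipoamide dehydrogenase Dld, named after its value was seen. Dld had log2 ratios of -0.17 and 0.21 on arrays 1 and 2 and did not pass (limma, adjusted p = 0.855). Pdha1, the alpha subunit of the first enzyme, read 2191 and 2542 units in siKlf4 ES cells, against 1412 and 1440 units in the reference, at 0.77 ± 0.034 (adjusted p = 2.72e-05). Pdhb, its beta subunit, read 2563 and 3801 units in siKlf4 ES cells, against 1459 and 1514 units in the reference, at 1.10 ± 0.19 or 2.15-fold (adjusted p = 6.82e-05). The dimmer Pdhb probe, farther along the transcript, gave 0.32, and the mean of both 0.71, so the size of the Pdhb value is less certain than its direction. Dlat, the acetyltransferase core, stood at 0.48 ± 0.078, inside the range of the negative control spots, and at 0.19 without background correction. Pdk1, the kinase that inhibits the complex, did not pass, at 0.06 and 0.13 on the arrays (adjusted p = 0.0828).

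Enzymes of the TCA cycle stayed close to the pool. Of 11 measured genes, 5 were higher and 3 lower (45.5% and 27.3%, against 34.8% and 34.2% of all named genes), and 3 did not pass. Their median was 0.17 (0.04 with median centring). Beyond the size range of the negative control spots there was 1 gene on each side. Idh3g, a regulatory subunit of the NAD-dependent isocitrate dehydrogenase, read 1549 and 1763 units in siKlf4 ES cells, against 966 and 973 units in the reference, at 0.81 ± 0.030 (adjusted p = 2.19e-05). Idh2, the mitochondrial NADP-dependent isocitrate dehydrogenase, read 6869 and 8055 units in siKlf4 ES cells, against 14576 and 14498 units in the reference. It was 2.02-fold lower, at -1.01 ± 0.0046 (adjusted p = 8.99e-06), and the channels did not overlap for either gene.

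The 3 subunits of the NAD-dependent enzyme were not equal relative to the pool. The catalytic Idh3a did not pass, at 0.06 and 0.27 (adjusted p = 0.053), and Idh3b was slightly lower, at -0.27 ± 0.035. The ratio of Idh3g exceeded that of Idh3a by 0.65 ± 0.18, while the difference of Idh3b minus Idh3a was -0.44 ± 0.11. Cs (citrate synthase, the entry step) was at -0.15 ± 0.0015, and Ogdh, the first enzyme of the oxoglutarate dehydrogenase complex, did not pass at 0.09. The succinyl-CoA ligase subunit Suclg1 (0.42 ± 0.12) and the fumarase Fh1 (0.35 ± 0.041) were higher, both no farther from 0 than negative control spots.

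Malate dehydrogenase has isoforms on both sides of the mitochondrial membrane. The mitochondrial Mdh2 (0.17 ± 0.11) and the cytosolic Mdh1 (-0.01 ± 0.10, not passed) differed by 0.18 ± 0.21, less than the spread between arrays. Aco1, the cytosolic aconitase that also acts as an iron-sensing RNA-binding protein, stood at 0.42 ± 0.0059.

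In the pentose phosphate pathway the sugar-rearranging enzymes and the entry enzyme differed. Taldo1 (transaldolase) read 17249 and 20204 units in siKlf4 ES cells, against 10763 and 10983 units in the reference, at 0.73 ± 0.023 or 1.66-fold (adjusted p = 3.12e-05). Tkt (transketolase) read 1486 and 1553 units in siKlf4 ES cells, against 763 and 797 units in the reference, at 0.99 ± 0.15 or 1.99-fold (adjusted p = 5.60e-05). Neither overlapped between the channels. G6pdx, which makes NADPH at the entry to the pathway, stood at -0.29 ± 0.017, within the size range of the negative control spots (-0.52 with median centring).

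Other genes of these pathways were taken from lists of related enzymes and carriers. Of 7 remaining pentose phosphate genes, 3 were higher and 3 lower (42.9% each, near the 34.8% and 34.2% of all named genes). The phosphoribosyl pyrophosphate synthetase Prps1, which uses ribose 5-phosphate for nucleotides, stood at 0.99 ± 0.062 and the epimerase Rpe at 0.80 ± 0.091. The isomerase Rpia was lower at -0.93 ± 0.13, and Pgls, the lactonase of the oxidative branch, at -0.29 ± 0.065. Among 7 further pyruvate dehydrogenase genes, 3 were higher (42.9%, near the 34.8% of all named genes) and 0 lower. Only Pdhx among them lay beyond the negative control spots. The 3 were Pdhx, the component that anchors the lipoamide dehydrogenase (0.80 ± 0.032), the lipoate synthase Lias (0.51 ± 0.12) and the inhibitory kinase Pdk4 (0.31 ± 0.049).

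Among 23 other enzymes of glycolysis and gluconeogenesis, 7 stood higher and 7 lower, and 9 missed the threshold. The 30.4% in each direction was near the 34.8% higher and 34.2% lower of all named genes. Pck2, the mitochondrial phosphoenolpyruvate carboxykinase, was 4.21-fold lower (-2.07 ± 0.027), and the phosphoglucomutase Pgm1 2.45-fold lower (-1.29 ± 0.024). The testis isoforms Ldhc (0.88 ± 0.013) and Pgk2 (0.77 ± 0.22) were higher, although dim: Ldhc read 315 and 374 units in siKlf4 ES cells, against 104 and 125 units in the reference. These were the 2 higher of 5 testis germ cell markers, of which 2 others were lower. The summed signals of the 5 were 2303 and 2809 units in siKlf4 ES cells, against 2100 and 2361 units in the reference. For dim genes such units include the higher negative control level of the ES channel. The part of testis germ cells in these ratios was not tested. Of 10 further TCA cycle and feeding genes, 4 stood higher (40%) and 2 lower (20%), and 4 missed the threshold. The aspartate aminotransferase Got1 stood at 0.66 ± 0.070 and the oxoglutarate carrier Slc25a11 at 0.31 ± 0.083. Among 8 carriers, 0 were higher, 2 lower (25%) and 6 did not pass. The lower ones were Slc37a4, the glucose 6-phosphate transporter of the endoplasmic reticulum (-1.18 ± 0.038), and the monocarboxylate carrier Slc16a1 (-0.18 ± 0.087).

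The hypoxia pathway, whose factor Hif1a activates many glycolytic genes when oxygen is low, was the most one-sided of these lists. Of 11 measured genes, 8 were lower (72.7%, against 34.2% of all named genes) and 1 higher, and the median was -0.53. Beyond the size range of the negative control spots 6 were lower, where the share over all named genes was 14.2%. Adm, a secreted peptide induced by hypoxia, stood at -2.37 ± 0.22 or 5.18-fold lower. The prolyl hydroxylases Egln3 (-1.95 ± 0.0046) and Egln1 (-1.62 ± 0.031), which mark the factor for degradation and are themselves hypoxia targets, were lower too, as was the stress gene Ddit4 (-0.99 ± 0.076). Hif1a, named after its value was seen, stood at -0.56 ± 0.13, with 901 and 1167 units in siKlf4 ES cells, against 1568 and 1544 units in the reference.

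**Figure D4:**
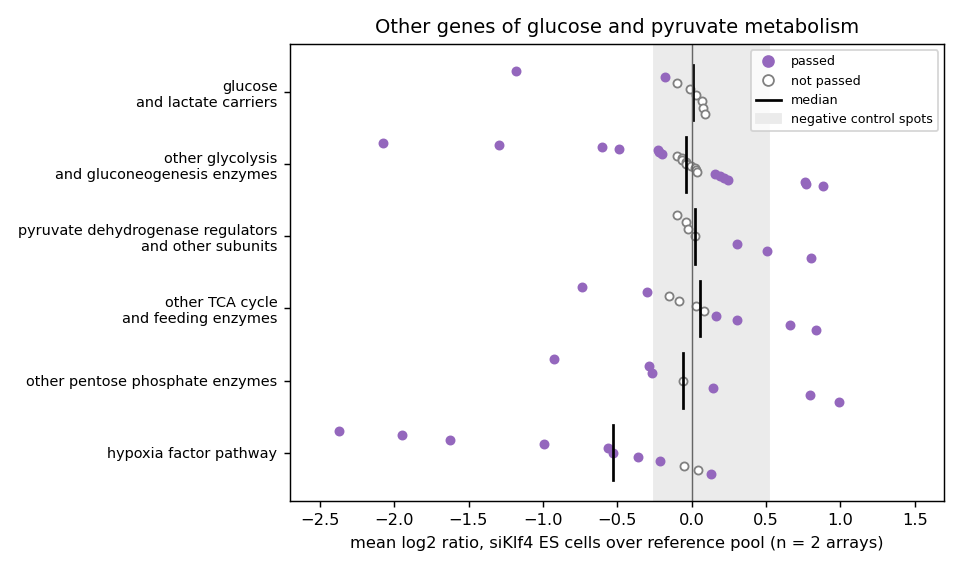
Mean log2 ratio over 2 arrays (x axis) of the measured genes in 6 lists of related genes; filled points passed the test, open points did not, black lines are list medians and the grey band is the range of the negative control spots. The hypoxia list has its median at -0.53, and the other medians lie near 0.

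The 250 bases before the transcription start were searched on both strands for 4 short motifs. RefSeq promoters (GRCm38.p6) were found for 35 of the 37 genes, all but Slc2a3 and Idh3a, some with several starts, giving 51 windows. A gene counts where any of its windows holds the motif. The GC box GGGCGG was in 23 of the 35 genes (65.7%), against 54.9% of 8051 named array genes with a promoter. By window the shares were 51.0% of 51, against 32.7% of all 32851. The hypoxia response core was searched only in the form ACGTG. That form was in 11 genes (31.4%), against 23.2% of array genes, and in 35.3% of windows, against 16.6% of all windows. The E-box CACGTG, which contains that core, was in 3 genes (8.57%), against 9.27% of array genes, and in 9.80% of windows, against 6.02% of all windows. The Klf-type motif GGGTGTG was in 6 genes (17.1%), against 9.27% of array genes, and in 11.8% of windows, against 6.93% of all windows. It was in 2 of 14 higher and 3 of 17 lower genes with a promoter. A match is only a description of the letters in the window.

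The promoters of Slc2a1, Hk2, Ldhb and Ldha are printed 5′ to 3′ on the strand of the gene, with every match in capitals. Slc2a1 and Hk2, both higher in siKlf4 ES cells, held the core, the GC box and the Klf-type motif. They were the only 2 of 14 higher genes with the Klf-type motif, which 3 of 17 lower genes held too. Of the lactate dehydrogenase genes, Ldhb (higher) held 0 of the 4 motifs. The window of the first of 2 starts of Ldha (lower) held 2 E-boxes, 2 GC boxes and 5 core matches, those inside the E-boxes included. Each E-box reads as the core on both strands, so it gave 2 of these matches.
Slc2a1, chr4:119108495-119108744, plus strand: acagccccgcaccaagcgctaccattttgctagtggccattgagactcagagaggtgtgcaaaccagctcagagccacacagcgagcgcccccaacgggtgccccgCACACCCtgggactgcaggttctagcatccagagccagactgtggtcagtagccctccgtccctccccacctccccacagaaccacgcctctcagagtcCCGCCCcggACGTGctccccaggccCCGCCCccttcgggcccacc
Hk2, chr6:82774455-82774704, minus strand: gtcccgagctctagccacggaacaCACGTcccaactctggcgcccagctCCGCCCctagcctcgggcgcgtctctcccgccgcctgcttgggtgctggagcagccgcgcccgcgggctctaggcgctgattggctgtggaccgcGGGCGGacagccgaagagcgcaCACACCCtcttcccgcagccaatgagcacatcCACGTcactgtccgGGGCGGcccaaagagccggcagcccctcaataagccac
Ldhb, chr6:142507958-142508207, minus strand: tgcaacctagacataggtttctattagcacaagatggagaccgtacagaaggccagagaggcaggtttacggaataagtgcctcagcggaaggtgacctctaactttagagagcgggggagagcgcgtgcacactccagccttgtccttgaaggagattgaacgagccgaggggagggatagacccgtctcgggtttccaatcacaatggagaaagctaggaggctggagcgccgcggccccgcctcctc
Ldha, chr7:46845554-46845803, plus strand: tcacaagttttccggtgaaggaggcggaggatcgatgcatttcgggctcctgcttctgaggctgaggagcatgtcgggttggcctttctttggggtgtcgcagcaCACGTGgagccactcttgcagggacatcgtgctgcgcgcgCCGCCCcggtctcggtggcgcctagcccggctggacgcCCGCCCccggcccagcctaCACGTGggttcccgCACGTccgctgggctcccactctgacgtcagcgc

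**Figure D5:**
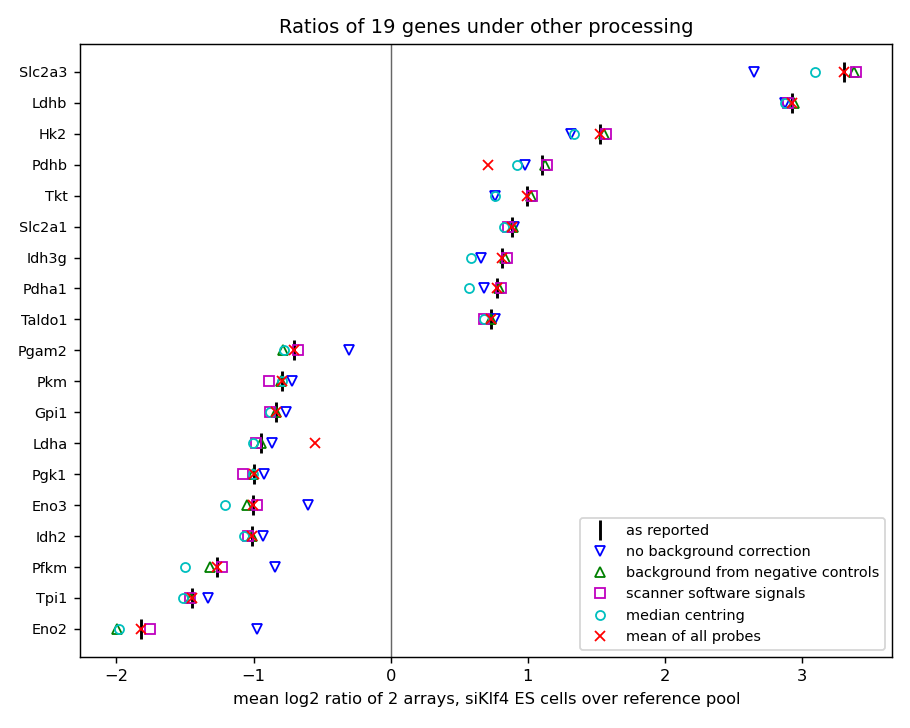
Mean log2 ratio over 2 arrays (x axis) of the 19 genes beyond the size range of the negative control spots, under the reported processing (black bars) and 5 others (coloured symbols). No gene crosses 0, and the ratios without background correction lie nearer 0 for Slc2a3 (2.65), Eno2 (-0.97) and Pfkm (-0.85).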

How the data were processed

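RNA was measured on 2 two-colour Agilent arrays of 21052 gene probes. Per the file headers, the authors' files hold intensity values in arbitrary units from Agilent Feature Extraction A.7.5.1: scanned mean and local background signals of each spot, and processed signals that the software had background-subtracted and dye-normalised. The deposited log10 ratio is red over green. The deposited series table holds log10 values of unstated making, not centred (medians 2.918 and 2.921). Each value is the arrays' mean log10 of the red processed signal, less that array's log10 ratio, within 2e-04 for 99.62% and 99.61% of probes, so its ratios are those of the processed signals.

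Mean signals were corrected with limma 3.58.1 (R 4.3.3) by normexp with an offset of 50 and normalised by loess within each array, control spots at weight 0. Probes marked as outliers (24) were left out, and 21028 were tested with lmFit and eBayes (1 residual and 4.24 prior degrees of freedom). Ratios are log2 of ES cells over reference. Probes were named through RefSeq accessions (10422 with 1 symbol, 10630 without), and the brightest probe stands for a gene. The text names every measured gene of the set, Klf4, Pou5f1 and Sox2, and up to 4 passing genes of each related list by size of ratio, except some that are not reported here; Hif1a, Esrrb, Dld, 4 transporters and the muscle markers were named after their values were seen. The genes, lists and tests were chosen with earlier results of these data known.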

Additional observations from a re-analysis of the deposited data

How the results depend on the processing

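Direction was kept by 37 of 37 genes with the negative controls as background. All 37 also kept it with the mean of all probes, which could change only Gapdh, Eno1, Ldha and Pdhb. With only probes above the negative controls, or with outlier spots kept, the ratios of these genes could not change. Those settings altered the test alone and say nothing on direction. Direction was kept by 36 without background correction and with the scanner software's processed signals, and by 34 with median centring. The exceptions were near 0: Mdh1 (0.031 without background correction, 0.0085 with processed signals) and, with median centring, Pfkp (-0.051), Eno1 (-0.085) and Idh3a (-0.0065). With median centring Mdh2 no longer passed (0.06). Pdk1 passed without background correction (0.14) and Idh3a with processed signals (0.19). Genes at least 2-fold lower numbered 1 without background correction, against 5 as reported, and 5 to 7 under the others. The median log2 ratio of the set was 0.033 without background correction, 0.048 with background from negative controls, 0.050 with processed signals and -0.085 with median centring. Leaving out either array gave medians of 0.0595 and 0.0600, values with no test since 1 array is left. The difference of Pdha1 minus Pdhb reversed with the mean of all probes (0.059, against -0.33). The series table was not run, as it holds the ratios of the processed signals. No paired analysis was possible because the arrays form 1 group. The number of arrays and the single dye orientation limit every ratio. Where a value moved, the cause was not tested.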
